A study of Mus musculus with 15 samples.

Results

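Slc25a1 encodes the mitochondrial citrate carrier, and it was described here in mouse dorsal root ganglia together with 7 enzymes that make, convert or use citrate or cytosolic acetyl-CoA (Acly, Cs, Aco1, Idh1, Idh2, Acss2 and Me1). These 8 genes were found by gene symbol among 39179 genes of the count table, and all 8 were among the 16976 genes that passed the filter on low counts. Slc25a1 was chosen by its measured difference between knockout and control ganglia in these same libraries, so that difference is given as a description, with no test, and the 7 enzymes were added by their place in the route.

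The study asked how a cluster of microRNAs shapes gene expression in sensory ganglia before and after nerve injury. Dorsal root ganglia hold the cell bodies of sensory neurons with their satellite glia and Schwann cells, and the ganglia at lumbar levels 4 to 6 were sequenced in bulk from mice aged 3 to 6 months on a mixed background, mostly C57bl6. Knockout mice were Wnt1-Cre; mirflox/flox, in which Cre removes the floxed miR-183 cluster in cells of the neural crest lineage, glia as well as neurons. In spared nerve injury (SNI), the common peroneal and tibial branches of the sciatic nerve are ligated and cut and the sural branch is left intact. The naive controls were 5 mice (4 Wnt1-Cre and 1 wt, replicate 7), the naive knockouts 4 mice, the SNI controls 3 mice (1 Wnt1-Cre, replicate 15, and 2 wt, replicates 18 and 23) and the SNI knockouts 3 mice. The labels name no floxed allele for the controls, and the time between injury and collection is not given in the sources used here. Each library came from 1 animal with its own animal number. In a bulk ganglion, fewer cells of a type and less RNA per cell cannot be told apart.

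Library totals ran from 5252920 to 10822762 counts. Control SNI replicate 23 had the lowest total and 7.43% of its counts in mitochondrial genes, against 2.26 to 3.597% in the other 14 libraries, and results that rest on it are also given without it. The 10 sensory neuron markers summed to between 15810 and 21420 CPM (counts scaled to the size of the library) in every library, and none was at 0. Mature microRNAs are too short for this kind of library, and the deletion itself was not checked here. The SNI animals carry the numbers 948 to 976 and the naive animals 1041 to 1082, and among the SNI animals the knockouts (948 to 956) and controls (974 to 976) do not interleave. Injury, and genotype after injury, therefore cannot be told apart from whatever goes with animal number.

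Citrate is made in the mitochondrion by citrate synthase (Cs) from acetyl-CoA and oxaloacetate. Slc25a1 carries it across the inner membrane in exchange for malate, and in the cytosol ATP citrate lyase (Acly) splits it into acetyl-CoA, the building block of fatty acids and sterols and the donor for histone acetylation, and oxaloacetate. Acss2 makes acetyl-CoA from acetate instead. Aco1, cytosolic aconitase, and Idh1 convert cytosolic citrate to isocitrate and on to 2-oxoglutarate with NADPH, Idh2 does the second of these steps in the mitochondrion, and Me1 turns malate into pyruvate with NADPH. MicroRNAs lower the level or translation of mRNAs that pair with bases 2 to 8 of the microRNA, the seed.

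The mature microRNAs of the cluster are printed here, with the seed match found in the 3′ UTR of Idh2, because the knockout removes them and the enzymes differ in such matches. In the microRNA sequences, from RefSeq on GRCm38.p6 (chromosome 6, minus strand), capitals mark the seed.
miR-183-5p: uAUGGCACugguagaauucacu
miR-96-5p: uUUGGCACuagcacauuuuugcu
miR-182-5p: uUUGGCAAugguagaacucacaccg
In the window of the mRNA, read from GENCODE M21 transcripts on GRCm38, capitals mark the match.
Idh2, miR-183-5p 8mer (chr7:80094871-80094900, minus strand): attgctctggaatcacatgGTGCCATAttt

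An 8mer is the complement of bases 2 to 8 followed by A (GTGCCATA for miR-183-5p, GTGCCAAA for miR-96-5p and TTGCCAAA for miR-182-5p), a 7mer-m8 lacks that A, and a 7mer-A1 keeps it but lacks the match to base 8. Matches were searched on the sense strand of the longest annotated 3′ UTR of each enzyme. In Idh2 the match lay at bases 235 to 242 of a 270-base 3′ UTR. Acly, Cs, Aco1, Idh1, Acss2 and Me1 held no match of the 3 classes in these windows. Of 14451 tested genes with an annotated 3′ UTR, 3.00% held a miR-96-5p 8mer, 1.93% a miR-183-5p 8mer, 9.33% an 8mer to any of the 3 microRNAs and 34.3% a match of any class. A match is a description of the letters, not evidence of binding.

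Slc25a1 (ENSMUSG00000003528, chr16:17925223-17928219, minus strand) stood in naive controls at 97.3, 96.1, 89.5, 91.7 and 85.0 CPM (replicates 1, 2, 3, 6 and 7), with coordinates here and below from GENCODE M21 on GRCm38. In naive knockouts it stood at 240.5, 258.9, 238.3 and 277.2 CPM (replicates 4, 5, 8 and 9). Every naive knockout was above every naive control, with no library between the groups. The group means were 91.9 ± 5.00 CPM (SD, n = 5) and 253.7 ± 18.2 (SD, n = 4), a log2 fold change of 1.46 with SE 0.0805, or 2.76-fold. The log2 fold change was 1.41 among animals 1041 to 1056 and 1.54 among animals 1079 to 1082. In each range the controls carry lower numbers than the knockouts. These values restate the difference by which the gene was chosen and add no separate result.

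After injury, Slc25a1 stood at 102.6, 120.7 and 96.0 CPM in the control replicates 15, 18 and 23. The knockout replicates 13, 19 and 21 had 294.0, 307.3 and 315.5 CPM. Again all knockouts were above all controls. The means were 106.5 ± 12.8 and 305.6 ± 10.9 CPM (SD, n = 3 each), a log2 fold change of 1.52 with SE 0.100, or 2.87-fold, and 1.46 without control SNI replicate 23. Over the alternatives run, the log2 fold change ranged from 1.41 to 1.54 in naive and from 1.46 to 1.62 in injured ganglia. By level the order was control naive, control SNI, knockout naive and knockout SNI; the control groups overlapped, and the knockout groups did not.

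**Figure D1:**
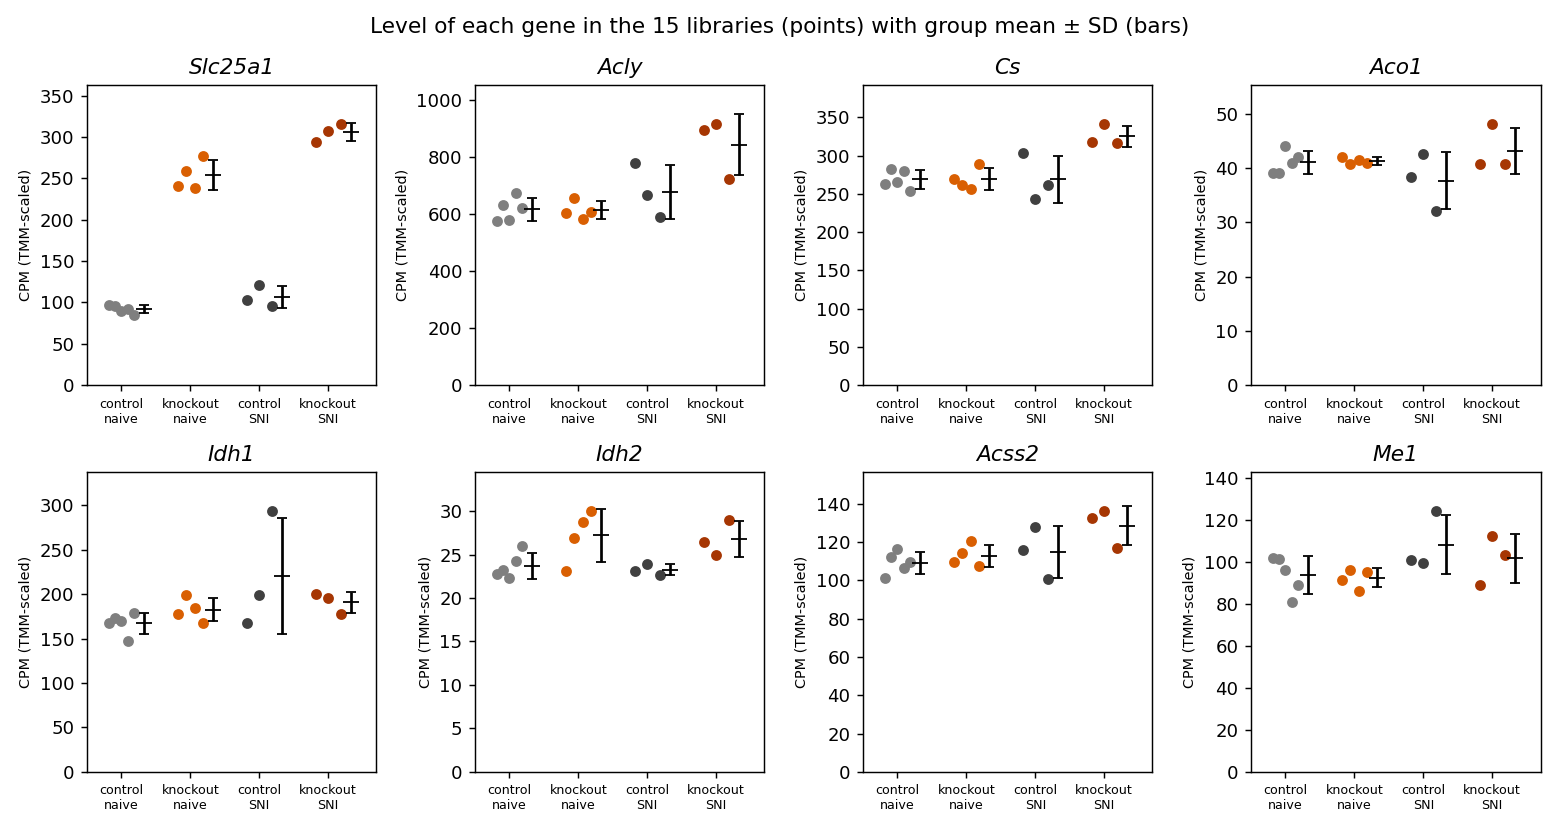
Level of each of the 8 genes in CPM (vertical axis, from 0, TMM-scaled) in the 4 groups; points are libraries and bars the mean ± SD. Slc25a1 stands at 85.0 to 120.7 CPM in the 8 control libraries and at 238.3 to 315.5 CPM in the 7 knockout libraries, and the naive control and knockout points of each of the other 7 genes overlap.

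The remaining tests used edgeR's quasi-likelihood test with Benjamini-Hochberg adjustment over the 16976 genes, and a gene was called at an adjusted p under 0.05. The log2 fold change of Slc25a1 with injury was 0.21 in controls (95% interval 0.0281 to 0.400, adjusted p = 0.248), and the control groups overlapped. In knockouts it was 0.27 (0.0776 to 0.460, adjusted p = 0.0683), and there every injured library was above every naive one. The groups did not overlap for 34.2% of all genes in that comparison. This injury difference in knockouts passed the threshold with DESeq2 (adjusted p = 0.0128), with only the groups compared (0.0165) and without knockout naive replicate 9 (0.046). With only Wnt1-Cre controls, a fit that leaves 1 injured control, the difference was 0.28. It did not pass in the other alternatives run. The difference between the injury effects of knockouts and controls was 0.05 (-0.213 to 0.323, adjusted p = 0.859).

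Of the 7 enzymes, 0 were called between naive knockouts and controls, where 1.89% of all tested genes were called, and 0 had groups that did not overlap, against 9.63% of all genes. Their median log2 difference was 0.00879, beside 0.00138 over all genes. The intervals limit the naive difference of Acly to -0.204 to 0.188 on the log2 scale, of Cs to -0.160 to 0.161 and of Acss2 to -0.123 to 0.221. With 7 genes, both counts of 0 are near the shares over all genes, so they do not set these enzymes apart.

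**Figure D2:**
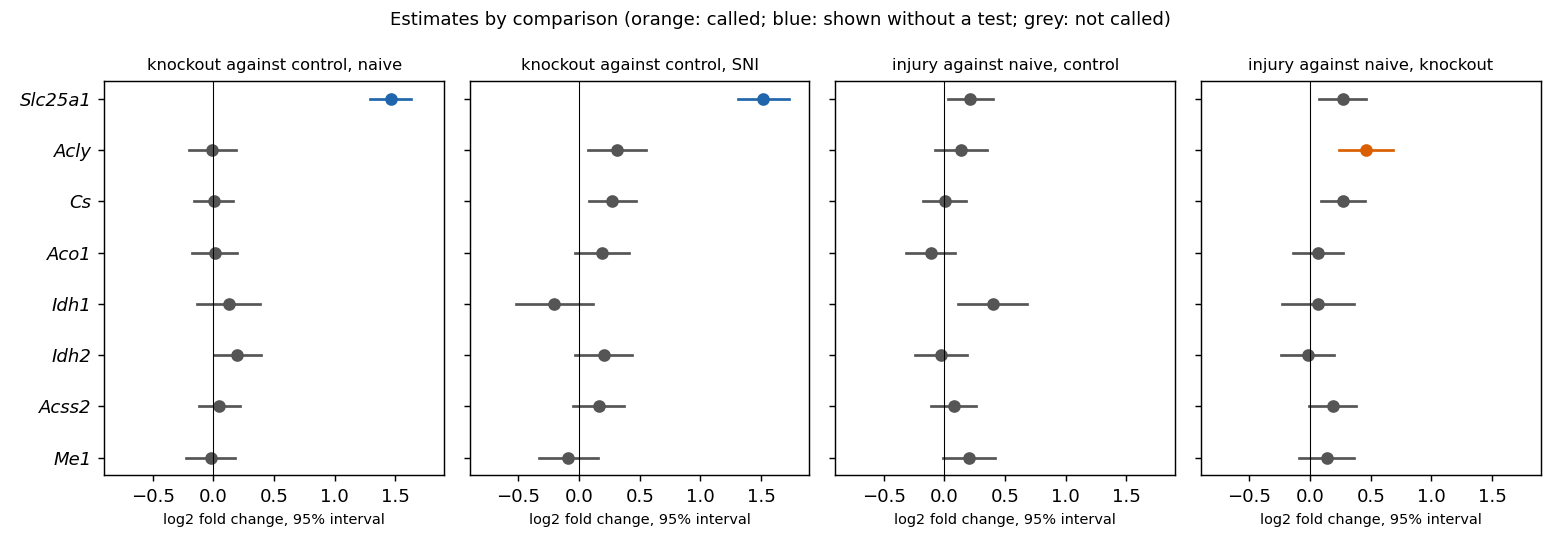
Log2 fold change (horizontal axis) of each gene with its 95% interval in 4 comparisons; blue is Slc25a1 shown without a test, orange a called gene and grey a gene not called. Slc25a1 lies at 1.46 and 1.52 in the knockout comparisons, and Acly at 0.46 is the gene called, in injured against naive knockouts.

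Cs (ENSMUSG00000005683, chr10:128337734-128362479, plus strand), the enzyme that forms citrate, stood at 253.9 to 283.0 CPM in naive controls (median 265.3) and at 269.2, 261.1, 256.6 and 289.2 CPM in naive knockouts. In injured controls it stood at 302.8, 243.0 and 261.1 CPM and in injured knockouts at 318.4, 341.2 and 316.8 CPM. The injured knockouts were above every other library of the series, and the other 3 groups overlapped. Against naive knockouts the log2 fold change was 0.27 (0.0930 to 0.457, adjusted p = 0.0522), and against injured controls 0.27 (0.0792 to 0.470, adjusted p = 0.131). The first passed the threshold in 7 of 15 alternatives, and the second in 1 of 14, without control SNI replicate 15 (0.37, adjusted p = 0.0131). Csl, a near copy of Cs, had 8 counts in all against 39746 for Cs.

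Acly (ENSMUSG00000020917, chr11:100476353-100528000, minus strand), which splits the exported citrate, stood at 575.8, 631.6, 580.5, 673.1 and 620.7 CPM in naive controls and at 605.4, 657.4, 582.8 and 606.1 CPM in naive knockouts. Its values in injured controls were 777.5, 667.1 and 589.8 CPM, and in injured knockouts 893.2, 915.7 and 722.7 CPM. The naive groups overlapped, and the injured knockouts lay above all naive libraries but overlapped the injured controls. Acly rose with injury in knockouts, by 0.46 on the log2 scale (SE 0.105, adjusted p = 0.0114). It was the 1 called of 8 genes in that comparison, where 10.1% of all genes were called, a share near the background. The groups of 3 of the 8 (Slc25a1, Acly and Cs) did not overlap there, against 34.2% of all genes, and the median over the 8 was 0.163, beside -0.0216 over all genes. The call was lost without knockout SNI replicate 19 (0.40, adjusted p = 0.0818). That library had an adipocyte marker sum of 263.9 CPM (8 of 11 markers passed the filter, and none was at 0 in a whole group), against 23.6 and 25.7 in the other injured knockouts, 19.9 to 28.5 in naive knockouts, 19.6 to 56.0 in naive controls and 26.7 to 88.6 in injured controls. The part of these other cells in the Acly value was not tested. In controls the injury difference of Acly was 0.14 (-0.0746 to 0.351, adjusted p = 0.530).

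Between injured knockouts and controls Acly differed by 0.31 (0.0759 to 0.554, adjusted p = 0.144), which passed the threshold only without control SNI replicate 15 (0.43, adjusted p = 0.0172) among the alternatives run. In that comparison 0 of the 7 enzymes were called, where 1.04% of all genes were, and 2 (Cs and Idh2) had groups that did not overlap, against 16.2% of all genes. The median over the 7 was 0.189, beside -0.00862 over all genes. For the difference between the injury effects of the genotypes, 0 of 8 genes were called, and 0% of all genes were. At an unadjusted p under 0.05, that test held 2281 genes, among them Acly (0.32, adjusted p = 0.365) and Cs (0.27, adjusted p = 0.365).

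Acss2 (ENSMUSG00000027605, chr2:155517948-155585724, plus strand), the route to acetyl-CoA that does not pass through citrate, had group means of 109.2 ± 5.81 CPM in naive controls (SD, n = 5), 112.9 ± 5.85 in naive knockouts (n = 4), 114.8 ± 13.8 in injured controls (n = 3) and 128.7 ± 10.2 in injured knockouts (n = 3). In each of the 4 comparisons its groups overlapped. The knockout difference was 0.05 in naive (adjusted p = 0.914) and 0.16 in injured ganglia (adjusted p = 0.333). Acss2 overlaps 3 other tested genes, among them Gss and Ggt7 on the opposite strand, and the strand setting of the counting is not given in the sources used here, so reads of these genes may be shared.

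Aco1 (ENSMUSG00000028405, chr4:40143081-40198338, plus strand), cytosolic aconitase, also acts as an iron regulatory protein. It stood at 41.0 ± 2.05 CPM in naive controls and 41.3 ± 0.650 in naive knockouts, then at 37.7 ± 5.27 in injured controls and 43.2 ± 4.24 in injured knockouts (SD). Its knockout difference was 0.01 in naive and 0.19 in injured ganglia (adjusted p = 0.991 and 0.291).

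Idh1 (ENSMUSG00000025950, chr1:65158616-65186500, minus strand) stood at 146.9 to 178.3 CPM in naive controls (median 170.2) and at 177.9, 199.1, 184.0 and 168.0 CPM in naive knockouts. Injured controls had 168.0, 199.3 and 293.7 CPM and injured knockouts 199.6, 195.4 and 177.5 CPM. Control SNI replicate 23, the library with the low total and the high mitochondrial share, had the highest value of all 15. The injury difference in controls was 0.40 (0.115 to 0.677, adjusted p = 0.153), fell to 0.14 without that library, and passed the threshold without control SNI replicate 15 (0.56, adjusted p = 0.0114). In that comparison 0 of the 8 genes were called, where 2.48% of all genes were, and 0 of 8 had groups that did not overlap, against 8.21% of all genes. The Idh1 difference between injured knockouts and controls turned from -0.20 to 0.06 without replicate 23, and neither value was called (adjusted p = 0.422 and 0.839). The same library held the highest Me1 level, at 124.3 CPM.

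Idh2 (ENSMUSG00000030541, chr7:80094846-80115392, minus strand), the mitochondrial enzyme whose 3′ UTR holds the miR-183-5p 8mer printed above, stood at 22.8, 23.2, 22.3, 24.2 and 25.9 CPM in naive controls and at 23.1, 26.9, 28.8 and 30.04 CPM in naive knockouts. After injury it stood at 23.2, 24.0 and 22.7 CPM in controls and at 26.4, 25.0 and 29.0 CPM in knockouts. The naive groups overlapped through knockout replicate 4, and the injured groups did not overlap. The knockout difference was 0.20 in both conditions, with 95% intervals of 0.00592 to 0.389 in naive (adjusted p = 0.401) and -0.0346 to 0.441 in injured ganglia (adjusted p = 0.287). It was positive under every alternative run, from 0.14 to 0.27 in naive and 0.14 to 0.25 in injured ganglia, and was called under none. It had the lowest levels in CPM of the 8 genes, with 105 to 303 counts a library.

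Me1 (ENSMUSG00000032418, chr9:86581371-86695953, minus strand), cytosolic malic enzyme, stood at 93.8 ± 8.89 CPM in naive controls, 92.3 ± 4.51 in naive knockouts, 108.2 ± 14.0 in injured controls and 101.6 ± 11.7 in injured knockouts (SD). Its knockout difference was -0.02 in naive ganglia (adjusted p = 0.974) and -0.09 after injury (adjusted p = 0.681). It overlaps 1 other tested gene.

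Levels were compared between genes as CPM per kilobase of exon. The length joins all annotated exons of a gene, 10.163 kb for Acss2 and at most 5.779 kb for the others. The order depends on it: in naive controls Acss2 at 109.2 CPM falls below Me1 at 93.8 CPM. In naive controls Acly came first at 116.8 ± 7.58, followed by Idh1 (60.3 ± 4.33), Cs (46.5 ± 2.10), Slc25a1 (42.5 ± 2.31), Me1 (24.4 ± 2.31), Acss2 (10.8 ± 0.572), Idh2 (9.15 ± 0.559) and Aco1 (9.13 ± 0.457), all mean ± SD in CPM per kilobase over 5 libraries. The libraries of Cs and Slc25a1 overlapped, as did those of Acss2 and Idh2 and of Idh2 and Aco1, and no other neighbours in this order did. In naive knockouts the Slc25a1 level of 117.2 ± 8.39 stood level with that of Acly, 116.1 ± 5.98 CPM per kilobase (SD, n = 4). Within single libraries the per-kilobase ratio of Slc25a1 to Acly was 0.332 to 0.412 in naive controls and 0.961 to 1.12 in naive knockouts, and after injury 0.322 to 0.441 in controls and 0.803 to 1.06 in knockouts. In injured controls the order began with Acly (128.5), Idh1 (79.5), Slc25a1 (49.2) and Cs (46.5 CPM per kilobase), and in injured knockouts with Acly (159.9), Slc25a1 (141.2), Idh1 (68.9) and Cs (56.3). The per-kilobase level of the carrier was nearest that of Cs in both control groups and nearest that of Acly in both knockout groups. Because Slc25a1 was chosen by its knockout difference, these ratios and this order restate that difference and add no separate result.

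**Figure D3:**
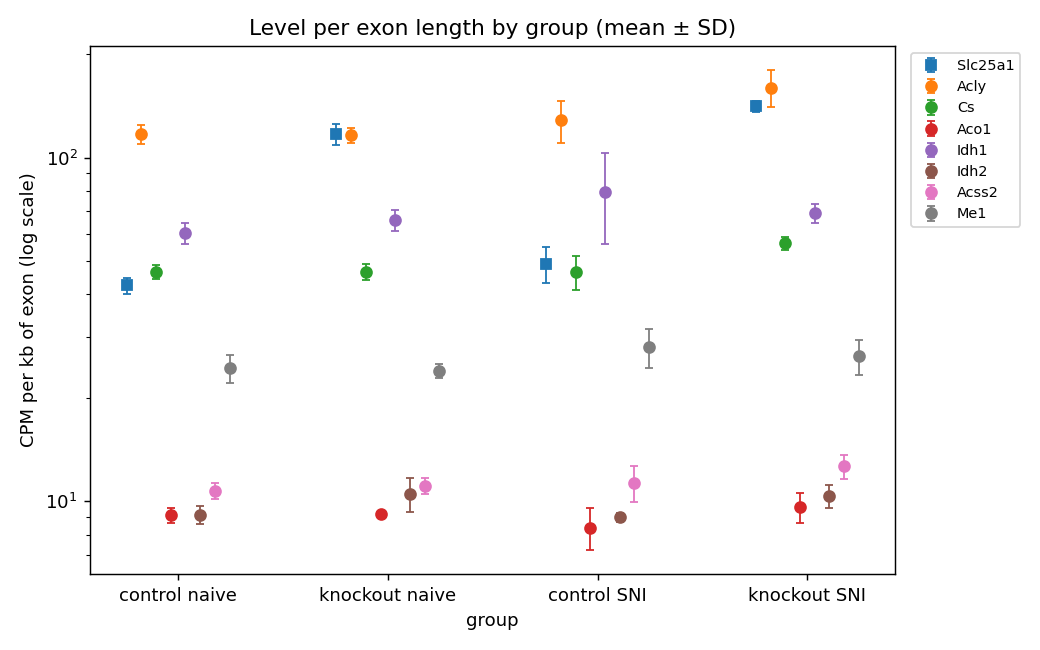
Mean level per exon length of the 8 genes in the 4 groups, in CPM per kilobase of exon on a log axis, with SD bars. Slc25a1 (square) lies beside Cs in both control groups and beside Acly in naive knockouts, at 117.2 against 116.1 CPM per kilobase.

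The Slc25 family of mitochondrial carriers moves metabolites, nucleotides and ions over the inner membrane, and 41 of its genes were tested. By level per kilobase Slc25a1 ranked 4 of 41 in both control groups and 2 of 41 in both knockout groups, behind the ADP/ATP carrier Slc25a4. The change in rank follows from the knockout difference by which Slc25a1 was chosen. Among the other 40 carriers 1 was called between naive knockouts and controls, where 1.89% of all genes were called. It was Slc25a25, an ATP-Mg/phosphate carrier (0.33, adjusted p = 0.0461). Its call was lost on leaving out any of the 9 naive libraries, with adjusted p up to 0.134, and with library totals (0.156), with no filter (0.100) and among animals 1079 to 1082 (0.226). In injured ganglia 1 was called, where 1.04% of all genes were. This was Slc25a44, a carrier of branched-chain amino acids (0.60, adjusted p = 0.0224), and the call was lost without knockout SNI replicate 19 (adjusted p = 0.103) or 21 (0.0804). It was also lost with only Wnt1-Cre controls (0.40, adjusted p = 0.180), with only the groups compared (0.553) and with library totals (0.0580). In naive ganglia Slc25a44 differed by 0.35 (adjusted p = 0.080), not called. There it passed the threshold with DESeq2 (adjusted p = 0.0123) and with only the groups compared (0.00481). It also passed with the range of animal numbers as a term (0.00725) and among animals 1041 to 1056 (0.0472). With only Wnt1-Cre controls, a fit that leaves 1 injured control, the naive value was 0.33. Over the alternatives the adjusted p ran up to 0.317. Counts of 1 in 40 are near the shares over all genes. The medians of the 40 were 0.0447 in naive and -0.0442 in injured ganglia.

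**Figure D4:**
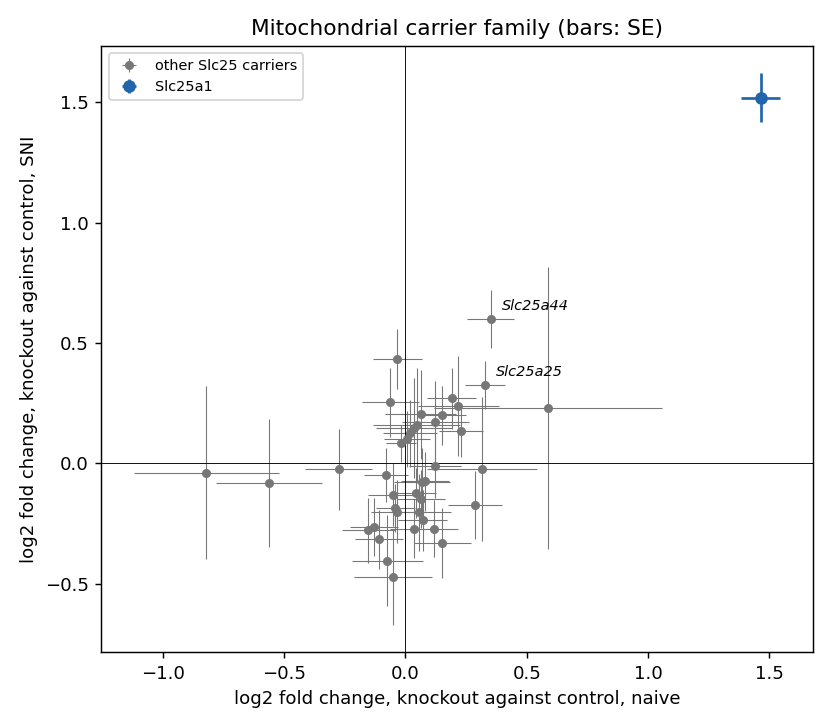
Knockout difference of each Slc25 carrier in naive (horizontal) and injured (vertical) ganglia, as log2 fold changes with SE bars. Slc25a1, chosen by this difference, lies at 1.46 and 1.52, apart from the other 40 carriers, and Slc25a44 and Slc25a25 are the called genes named.

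With injury, Slc25a24 rose in controls (0.55, adjusted p = 0.0152), a call lost without control SNI replicate 18 (adjusted p = 0.0517), with only the groups compared (0.0607) and with only Wnt1-Cre controls (0.181). In knockouts 3 of the 40 carriers fell with injury, where 10.1% of all genes were called, so their share was not above the background. Slc25a33, a pyrimidine nucleotide carrier, fell by 0.52 on the log2 scale (adjusted p = 0.00945) and was called in each omission of 1 library. Slc25a4 and Slc25a14 fell by 0.40 and 0.46, each a call lost on 6 of 7 omissions, with the highest adjusted p (0.187 and 0.188) without knockout SNI replicate 19.

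Genes around the route were grouped in 4 lists. The first held 14 genes that feed or regulate citrate synthesis, and the next 15 of the rest of the citric acid cycle. Then came 15 of the malate, NADPH and acetate side routes, and 17 listed as users of cytosolic acetyl-CoA. The last list also holds lipid genes that do not use acetyl-CoA directly, such as Srebf1, Srebf2, Scd1 and Scd2. Between naive knockouts and controls 0 genes of each list were called. Over all genes 1.89% were called there, so counts of 0 in lists of this size are near the background. The list medians were 0.0507, 0.0448, -0.0337 and 0.0204. In injured ganglia 2 genes of the lists were called between knockouts and controls, where 1.04% of all genes were called. Pdk2, a kinase that inhibits pyruvate dehydrogenase, stood at 25.9 to 30.6 CPM in controls and 39.8 to 48.3 CPM in knockouts (0.65, adjusted p = 0.0279), and was lost without knockout SNI replicate 19 (adjusted p = 0.102) or 21 (0.134), with only Wnt1-Cre controls (0.215) and with only the groups compared (0.490). Fasn, the fatty acid synthase that consumes the acetyl-CoA made by Acly, stood at 387.9 ± 117 CPM in controls and 804.6 ± 192 CPM in knockouts (SD, n = 3 each), a difference of 1.05 (adjusted p = 0.0224). Its highest value was in knockout SNI replicate 19, the library with the high adipocyte sum, and the call was lost without that library (0.84, adjusted p = 0.120) or without control SNI replicate 23 (0.87, adjusted p = 0.0714). It was also lost with only Wnt1-Cre controls (0.65, adjusted p = 0.366) and with only the groups compared (1.05, adjusted p = 0.553).

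In knockouts Fasn also rose with injury, from 404.7 ± 61.9 CPM in naive libraries (SD, n = 4) by 0.99 on the log2 scale (adjusted p = 0.00440), and this call was kept on leaving out each of the 7 libraries in turn. The difference between the injury effects of the genotypes was not called for Fasn (0.78, adjusted p = 0.365). Of the 17 genes listed as users of acetyl-CoA, 3 rose and 1 fell with injury in knockouts, where 10.1% of all genes were called. The list median was 0.285, beside -0.0216 over all genes. Besides Fasn, the lipogenic factor Srebf1 (0.58, adjusted p = 0.0252) and the histone acetyltransferase Crebbp (0.67, adjusted p = 0.0120) rose, and the fatty acid elongase Elovl6 fell by 0.32 (adjusted p = 0.0366). In the other lists Got2 rose (0.32, adjusted p = 0.0336), while the pyruvate dehydrogenase subunit Pdhb fell by 0.45 (adjusted p = 0.0330) and the isocitrate dehydrogenase subunit Idh3b by 0.28 (adjusted p = 0.0415). Each of these 6 calls was lost without at least 1 library, for 5 of them with the highest adjusted p (0.0825 to 0.170) without knockout SNI replicate 19. In controls the monocarboxylate transporter Slc16a1 rose with injury (0.46, adjusted p = 0.0340), a call lost on 6 of 8 omissions, with limma-voom (adjusted p = 0.0562), with only the groups compared (0.211) and with only Wnt1-Cre controls, where the value was 0.15 (adjusted p = 0.470).

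**Figure D5:**
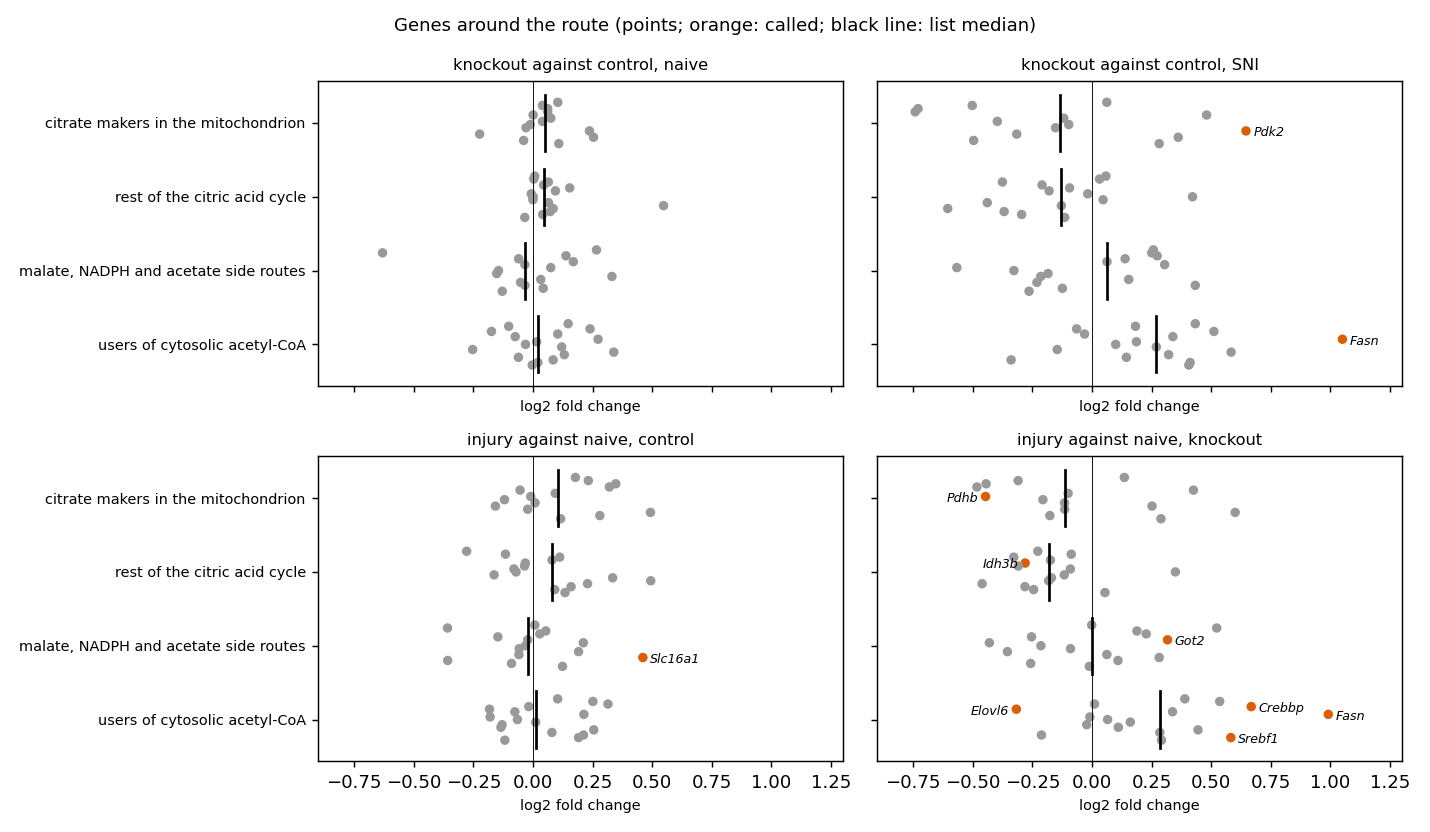
Log2 fold change (horizontal axis) of the genes in 4 lists around the route, in 4 comparisons; each point is a gene, orange marks a called gene and the black line the list median. No gene is orange in the naive knockout comparison, and Fasn lies farthest right in both panels that include injured knockouts.

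Skeletal muscle markers were also uneven among injured knockouts, with sums of 754.9, 159.7 and 1250 CPM against 8.14, 364.9 and 13.2 CPM in injured controls. The part of muscle RNA in the levels of Slc25a1 and the other genes was not tested.

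The genes whose pattern over the 15 libraries was most like that of Slc25a1, by the root mean square difference of centred log2 CPM, were B4galnt1 (0.191), Gng4 (0.202), Rasgrf1 (0.219), Chst10 (0.225) and Gm26541 (0.234). B4galnt1 makes complex gangliosides, Gng4 is a G protein gamma subunit, Rasgrf1 a Ras exchange factor and Chst10 a sulfotransferase, while Gm26541 is annotated as a long non-coding RNA. B4galnt1 stood at 24.7 to 29.97 CPM in naive controls and 57.9 to 76.4 CPM in naive knockouts, and after injury at 18.1 to 31.9 and 81.0 to 99.2 CPM. Of the other 7 genes of the route the closest was Idh2, at 0.673, rank 1257 of 16975 genes. Likeness to Slc25a1 picks genes that are higher in knockouts, and all 5 were (log2 1.08 to 1.32 in naive ganglia), so nothing is read from the matches to the cluster in the 4 of them with an annotated 3′ UTR. The 8mer of each is printed to show the letters, in capitals.
B4galnt1, miR-96-5p (chr10:127172101-127172130, plus strand): ggggaggttcactttccaaGTGCCAAAgag
Gng4, miR-183-5p (chr13:13825596-13825625, plus strand): ttatagccaaaaaacaaatGTGCCATAtaa
Rasgrf1, miR-182-5p (chr9:89913074-89913103, plus strand): ggcttctcagtaagagatcTTGCCAAAgca
Chst10, miR-96-5p (chr1:38864173-38864202, minus strand): aaaataagatttaaaatgtGTGCCAAAtct
B4galnt1 and Chst10 held the same 8 letters, and Gng4 the same as Idh2.

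Among the pathway and carrier genes, 10 held an 8mer to the cluster. Their median knockout difference was 0.193 in naive ganglia, with 8 of 10 positive and 0 called. In the 87 genes without one the median was 0.0398, with 54 of 87 positive and 1 called, and 1.89% of all genes were called. In injured ganglia the median was 0.202 with an 8mer, with 7 of 10 positive and 1 called (Slc25a44), and -0.0489 without one, with 38 of 87 positive and 2 called, where 1.04% of all genes were called. The genes without an 8mer include genes with a 7mer-m8, among them the called genes Slc25a25, Pdk2 and Fasn. No test was made of these differences.

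Slc25a1 lies on chromosome 16 among 8 tested genes within 250 kb. None of the 8 was called between knockouts and controls in either condition, by edgeR's test. Over all genes 1.89% were called in naive and 1.04% in injured ganglia, so this count is near the background. The nearest, Ess2, 13875 bases away, differed by 0.09 in naive and 0.21 in injured ganglia (adjusted p = 0.853 and 0.306). Dgcr2, 26661 bases away, differed by 0.35 and 0.47 (adjusted p = 0.0883 and 0.0722). With injury in knockouts, where 10.1% of all genes were called, Med15 rose (0.46, adjusted p = 0.0150, and 0.0918 without knockout SNI replicate 19) and Dgcr6 fell by 0.42 (adjusted p = 0.0299, lost on 6 of 7 omissions).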

How the data were processed

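The authors deposited 1 table of read counts per gene for 39179 Ensembl genes in 15 libraries (stranded mRNA kit, per the labels' protocols). Per the submitters' processing notes, the build was GRCm38 and the tools included HTSeq 0.6.1 and TopHat2 2.0.4, with DESeq2, Cufflinks and SAMtools. No annotation release or strand setting is given in the sources used here. GENCODE M21 gave a symbol to 37693 genes, and genes without one hold 0.523% of the counts. Genes were filtered with filterByExpr by group (minimum count 10), which left 16976 genes and removed 0.131% of the counts. One model of 4 group means over the 15 libraries was fitted with edgeR 4.0.16 (TMM, robust quasi-likelihood F test, 11 residual degrees of freedom), and p-values were adjusted by Benjamini-Hochberg over all genes, with calls under 0.05. CPM are TMM-scaled, a prior count of 2 was added for log2 CPM, and SE is the log2 fold change over the square root of F. Alternatives were DESeq2 1.42.0, limma-voom (limma 3.58.1), RLE factors, library totals alone, no filter, a mean of at least 1 CPM, only the groups compared, only Wnt1-Cre controls, each library left out, and the range of animal numbers. The script was tested on simulated data.

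The members and lists were chosen with earlier results of these data known. Named genes were the 8 members, up to 4 called genes of smallest p per list and comparison, up to 3 called carriers, the 5 genes most like Slc25a1, and the 2 nearest and any called neighbours. Spearman correlations ran from 0.953 to 0.993 over the 22 same-group pairs, and no pair agreed within counting noise. Seed matches in Slc25a1 are not reported here.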

Additional observations from a re-analysis of the deposited data

How the results depend on the processing

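The log2 fold change of Slc25a1 between knockouts and controls kept its sign under every alternative run, a description only, since the gene was chosen by that difference. Over the 40 estimates of the 8 genes, 632 of 696 alternative values kept their sign and, where tested, their side of the threshold. Among the 632 are 20 naive and 14 injured values of that Slc25a1 difference, which had no test. Of the rest of the 696, 1 lost its call, 14 gained one and 49 changed sign, none of these 49 with an adjusted p under 0.05. The cause of these changes was not tested. The number of the 8 genes called in injured against naive knockouts, 1 here, was 3 with DESeq2, 2 with limma-voom, 2 with RLE factors, 2 at a mean of at least 1 CPM, 3 with only the groups compared, and 0 to 3 on leaving out 1 library. With only the groups compared, the calls over all 16976 genes rose as well, from 1717 to 4438, so the 3 there are set against a larger background. The fit with only Wnt1-Cre controls also moved this number, but it leaves 1 injured control, so its count is not given. On omissions of 1 library the number of members called was 0 to 1 for injury in controls and 0 to 2 for knockout against control after injury, in both with the higher value without control SNI replicate 15. Over all genes, the calls between injured knockouts and controls, 177 here, were 57 to 3558 on omissions, 3558 without control SNI replicate 15, and 0 to 793 otherwise. They were 321, 421 and 1717 in the naive, injured control and injured knockout comparisons, with 151 to 229, 283 to 1506 and 587 to 1626 on omissions and 274 to 1017, 213 to 673 and 1364 to 4745 otherwise; for the difference between injury effects, 0 here, they were 0 to 1235 on omissions and 0 to 12 otherwise. Of 294 alternative values for the other named calls, 196 were unchanged in side, 93 lost the call, 5 gained one and 0 changed sign.

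The widest of these sign changes was that of Idh1 after injury, from -0.20 to 0.18 with only Wnt1-Cre controls. For the naive knockout difference, Cs gave -0.0045 with library totals, -0.0027 with only the groups compared, -0.018 with only Wnt1-Cre controls, -0.0041 with the range of animal numbers as a term and -0.028 in animals 1041 to 1056, where Acly gave 0.084, while in animals 1079 to 1082 Aco1 gave -0.014 and Me1 0.091. For injury in controls, Cs gave -0.0041 with limma-voom and -0.067 with library totals, and Idh2 0.019 with only Wnt1-Cre controls. With those controls, Me1 gave 0.0099 after injury, and the differences between injury effects were 0.025 for Idh1, -0.026 for Idh2 and 0.049 for Me1. Idh2 gave -0.0014 there at a mean of at least 1 CPM.

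On omissions of 1 library the naive knockout difference ran from -0.044 to 0.032 for Acly, -0.037 to 0.030 for Cs, -0.0046 to 0.034 for Aco1 and -0.065 to 0.016 for Me1. Injury in controls ran from -0.095 to 0.069 for Cs, -0.047 to 0.025 for Idh2 and -0.011 to 0.16 for Acss2. Injury in knockouts ran from -0.019 to 0.11 for Aco1 and -0.081 to 0.045 for Idh2. Knockout against control after injury ran from -0.36 to 0.064 for Idh1 and -0.16 to 0.031 for Me1, and the difference between injury effects from -0.00082 to 0.16 for Slc25a1, -0.074 to 0.055 for Idh2 and -0.14 to 0.056 for Me1. Another scaling moved the median of all genes by up to 0.063. Groups of 3 to 5 animals limit the precision to the intervals given. No paired analysis was possible because the groups share no replicate numbers.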
